A study of Homo sapiens with 12 samples.

Results

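Aminoacyl-tRNA synthetases are the enzymes that join each amino acid to its transfer RNA (tRNA), and their messenger RNAs were followed here in EGFR-mutant lung cancer cells exposed to EGFR inhibitors. The family was taken as the 35 gene symbols of cytosolic and mitochondrial synthetases in the table of gene counts, which lists 60591 genes in all. Symbols ending in 1, A or B were treated as cytosolic (19 genes) and symbols ending in 2 as mitochondrial (16 genes), without reference to any measured value. All 35 members were found and all 35 passed the filter on low counts. RNA was sequenced from PC9 and H1650, established non-small cell lung cancer lines that carry the same activating EGFR deletion. The labels give the genotype of both as Wild-type. Cells were collected when drug was added (T0, 0.1% DMSO, 0 h) or 36 h later, with erlotinib given at 10 μM and osimertinib at 0.1 μM. With 2 replicates for each line and treatment there were 12 libraries in 6 groups, and the study's legends call these replicates biological. Erlotinib is a reversible inhibitor of the EGFR kinase and osimertinib binds the receptor covalently. Their doses differed, so a contrast between the drugs compares these particular exposures. The libraries analysed here hold no vehicle-treated cells at 36 h, so in every comparison with T0 drug and time in culture cannot be told apart. CPM, used throughout, is the number of reads of a gene per 1000000 reads of the library after scaling.

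Each synthetase serves one amino acid, apart from EPRS1, which charges both glutamate and proline tRNAs, and the phenylalanine enzyme, which is assembled from the products of FARSA and FARSB. Cytosolic protein synthesis uses one set of enzymes and mitochondrial protein synthesis another, all encoded in the nucleus, while GARS1 and KARS1 each encode the enzyme of both compartments. Several cytosolic enzymes sit together with the scaffold proteins AIMP1, AIMP2 and EEF1E1 in the multisynthetase complex. Shortage of amino acids and other stresses lead to phosphorylation of eIF2 and to synthesis of the transcription factor ATF4, which is known to act on genes for amino acid synthesis, amino acid transport and many cytosolic synthetases. The sequence it binds with C/EBP partners, the C/EBP-ATF response element, has the core TGATGNAA.

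After erlotinib, 13 cytosolic synthetase messages were higher and 6 lower than at T0, the same genes in both lines. Of all tested genes, 12% were higher and 12.4% lower in both lines. Of the 16 mitochondrial members, 1 in PC9 and 2 in H1650 differed between the drugs, where 16.6% and 8.75% of all tested genes did. After osimertinib, 12 of those 13 cytosolic genes stood lower than after erlotinib in both lines, as did 1.52% of all tested genes. These 12 genes were AARS1, CARS1, EPRS1, GARS1, IARS1, LARS1, MARS1, NARS1, SARS1, TARS1, WARS1 and YARS1. Since the 12 genes moved together between the drugs, their promoters were searched for the letters TGATGNAA on both strands, in the window from 250 bases before to 50 bases from the transcription start given by RefSeq on GRCh38.p14. A window was at hand for 30 of the 35 members, some of which have more than 1 start. LARS1, VARS1, YARS1, AARS2 and VARS2 had none. The motif lay in 8 of the 30, and these stretches of 30 bases are shown because 7 of the 8 belong to the genes that differed between the drugs. Each reads along the gene's own strand, and capitals mark the motif on whichever strand it lies.
AARS1 (chr16:70289675-70289704, gene on the minus strand): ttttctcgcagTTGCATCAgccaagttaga
CARS1 (chr11:3057407-3057436, gene on the minus strand): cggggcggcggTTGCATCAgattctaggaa
GARS1 (chr7:30594834-30594863, gene on the plus strand): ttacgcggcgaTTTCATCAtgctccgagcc
IARS1 (chr9:92293692-92293721, gene on the minus strand): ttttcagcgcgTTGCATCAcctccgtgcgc
MARS1 (chr12:57488053-57488082, gene on the plus strand): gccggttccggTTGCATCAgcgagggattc
NARS1 (chr18:57621804-57621833, gene on the minus strand): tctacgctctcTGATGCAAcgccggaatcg
TARS1 (chr5:33440956-33440985, gene on the plus strand): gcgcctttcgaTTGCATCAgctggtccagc
YARS2 (chr12:32756076-32756105, gene on the minus strand): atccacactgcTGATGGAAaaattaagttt
Of the 12 genes, 10 had a window and 7 of these held the motif, against 1 of the 20 other members with a window, YARS2. Most of these 20 are mitochondrial. By compartment, 7 of 16 cytosolic and 1 of 14 mitochondrial members with a window held the motif. The 12 genes are all cytosolic and were picked by their values here. A link between the motif and the drug difference was not tested. EPRS1, SARS1 and WARS1 are the 3 of the 12 whose window held no match. Of the 5 cytosolic genes with a window that were lower after erlotinib in both lines, 0 held it. Among all 27305 gene symbols with a window of this length 4.46% held the motif, as did 3.62% of all 35116 windows. Of 22 other known ATF4 target genes with a window, 7 held it. The core read TGATGCAA in all of the cytosolic matches apart from GARS1, where it read TGATGAAA. Along the gene, it began between -33 and 14 bases from the first transcribed base in 6 of these 7 and at -187 in AARS1. A match describes these letters in this window and is not a measured site of binding.

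Between 17961765 and 26346187 reads per library were assigned to genes. Normalized CPM below are relative to library totals scaled with TMM factors. Cytosolic members had between 360 and 18482 reads in a library and mitochondrial members between 22 (VARS2) and 6859 (IARS2), so that the errors of the lowest mitochondrial genes were the largest. CPM is a share of the RNA sequenced, so fewer cells of a kind and less of an RNA per cell cannot be told apart. As markers of epithelial cells, EPCAM, KRT8, KRT18, KRT19 and CDH1 were each above 185 normalized CPM in every library, whereas NKX2-1, a lung lineage factor, had at most 2 reads. PTPRC and LUM, of leukocytes and fibroblasts, had at most 5 and 1 reads, PECAM1 of endothelium at most 1.61 normalized CPM, and COL1A1 between 9.96 and 44.8 normalized CPM.

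Summed over its genes, the cytosolic part of the family was higher with erlotinib and lower with osimertinib than at T0, and the mitochondrial part was lower with each drug. The 19 cytosolic genes together took 3752 ± 111 normalized CPM (SD, n = 2) in PC9 cells at T0, 4542 ± 164 after erlotinib and 2185 ± 97.0 after osimertinib. In H1650 cells the sums were 3239 ± 32.4 at T0, 4442 ± 249.9 after erlotinib and 2961 ± 5.10 after osimertinib. Both erlotinib libraries lay above both T0 libraries and both osimertinib libraries below them, in either line. The 16 mitochondrial genes summed to 899 ± 15.1 normalized CPM in PC9 at T0, 694 ± 8.46 after erlotinib and 684 ± 33.6 after osimertinib. In H1650 the mitochondrial sums were 588 ± 3.15, 488 ± 26.2 and 523 ± 10.0 in the same order. The mitochondrial sum was thus below T0 with each drug, and the libraries of the drugs overlapped in PC9 but not in H1650.

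**Figure D1:**
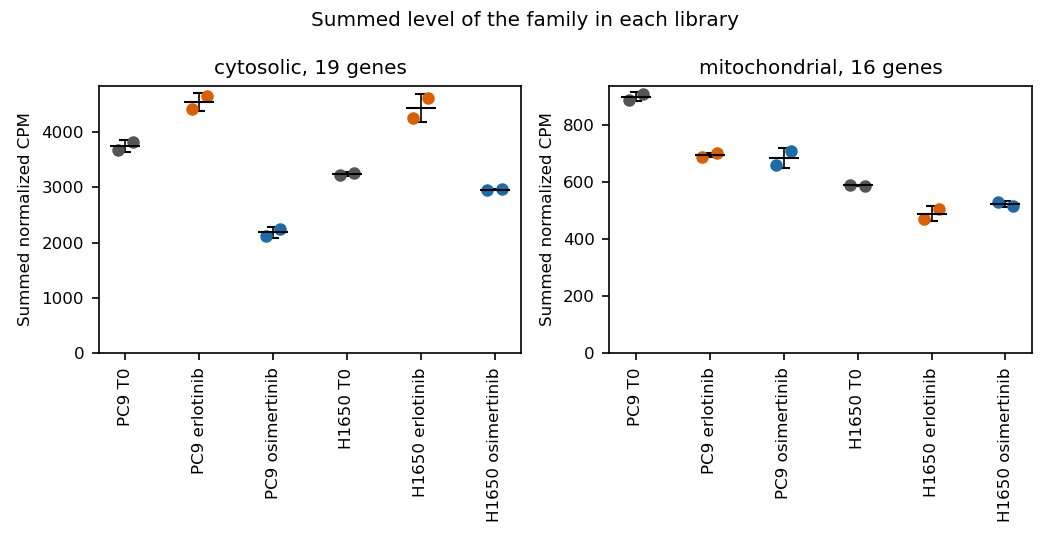
Summed normalized CPM of the 19 cytosolic (left) and 16 mitochondrial (right) synthetase genes in each of the 12 libraries. Points are libraries, the wide bar is the mean and the whiskers are the SD of 2 libraries. The cytosolic sum was highest after erlotinib in both lines (4542 and 4442) and lowest after osimertinib (2185 and 2961).

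Levels were compared between genes per kilobase of the gene length given with the counts. In PC9 cells at T0, TARS1, the threonine enzyme, was the highest cytosolic member with 102 normalized CPM per kilobase, CARS1 the lowest with 3.25, and the cytosolic median was 41.6. IARS2 led the mitochondrial members with 81.4, VARS2 had 0.336 and the median was 8.95. In H1650 at T0, the cytosolic median per kilobase was 29.5 (KARS1 highest with 79.8, CARS1 lowest with 2.46) and the mitochondrial median 4.79. IARS2 and VARS2 were at the ends of the mitochondrial order in all 6 groups, whereas the highest cytosolic gene of H1650 changed from KARS1 at T0 to AARS1 after either drug.

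The first comparison asked how each line's synthetase messages after erlotinib differed from T0. In PC9 cells 13 cytosolic members were higher and 6 lower (adjusted p under 0.05 by the quasi-likelihood test of edgeR, Benjamini-Hochberg adjusted over 19108 genes), where 32.7% of all tested genes were higher and 29.1% lower, 61.8% in either direction. In H1650 cells the counts were again 13 and 6, against 18% and 18.5% of all tested genes (36.5% in either direction). The 13 higher were the 12 genes named above and QARS1, the glutamine enzyme. The 6 lower were FARSA, FARSB, HARS1, KARS1, RARS1 and VARS1. Of all tested genes 12% were higher and 12.4% lower in both lines, 24.4% together, and the lines share no library. The median log2 fold change of the cytosolic members was 0.43 in PC9 and 0.33 in H1650, beside 0.07 and 0.01 over all tested genes.

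Among the genes that rose, CARS1, which charges cysteine tRNA, had one of the largest changes. In PC9 it stood at 31.0 and 34.4 normalized CPM at T0, 84.7 and 84.1 after erlotinib and 32.4 and 32.5 after osimertinib. In H1650 it stood at 22.9 and 26.5 normalized CPM at T0, 60.9 and 56.9 after erlotinib and 33.8 and 30.6 after osimertinib. The erlotinib libraries were the highest in both lines and did not overlap those of T0, with log2 fold changes of 1.37 (SE 0.091, adjusted p = 2.17e-13) in PC9 and 1.25 (SE 0.093, adjusted p = 2.39e-11) in H1650. AARS1, the alanine enzyme, was measured at 194 and 195 normalized CPM at T0, 473 and 492 after erlotinib and 124 and 131 after osimertinib in PC9. Its H1650 levels were 304 and 303 normalized CPM at T0, 548 and 571 after erlotinib and 357 and 339.9 after osimertinib. Erlotinib libraries were again above all others of the line, by 1.31 (SE 0.068, adjusted p = 1.07e-15) against T0 in PC9 and 0.88 (SE 0.067, adjusted p = 3.45e-11) in H1650.

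WARS1, the tryptophan enzyme and also a known interferon-induced gene, was low in PC9, with 29.7 and 30.1 normalized CPM at T0, 61.6 and 65.7 after erlotinib and 18.9 and 20.2 after osimertinib. H1650 had more of it throughout, with 117 and 120.1 normalized CPM at T0, 278 and 309 after erlotinib and 129 and 121 after osimertinib. The increase with erlotinib was nonetheless close in the lines, 1.09 (SE 0.083, adjusted p = 4.22e-12) in PC9 and 1.31 (SE 0.075, adjusted p = 1.00e-13) in H1650, and the difference between them, 0.22 on the log2 scale, did not pass the test (adjusted p = 0.128). GARS1, which serves glycine in both the cytosol and mitochondria, read 163 and 169 normalized CPM at T0, 309 and 343 after erlotinib and 65.6 and 71.4 after osimertinib in PC9. For H1650 the GARS1 values were 210.5 and 222 normalized CPM at T0, 437 and 475 after erlotinib and 205 and 208 after osimertinib. The changes against T0 were 0.97 (SE 0.074, adjusted p = 3.97e-12) and 1.08 (SE 0.074, adjusted p = 4.02e-12), and no erlotinib library overlapped a T0 library.

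SARS1, the serine enzyme, rose by 1.05 (SE 0.074) in PC9 and 0.75 (SE 0.074) in H1650. MARS1 makes the methionyl-tRNA needed to start each protein made in the cytosol. In PC9 it was at 159 and 153 normalized CPM at T0, 256 and 246 after erlotinib and 92.4 and 97.6 after osimertinib. In H1650 cells MARS1 was at 135 and 138 normalized CPM at T0, 271 and 285 after erlotinib and 143 and 138 after osimertinib. It rose by 0.69 (SE 0.07) and 1.02 (SE 0.07). The exons of MARS1 overlap those of DDIT3 on the opposite strand over 355 bases, and DDIT3 messages rose too (1.83 in PC9 and 0.53 in H1650). DDIT3 was looked at after its values were seen. The strand setting of the counting is not given in the sources used here, and the part of these shared bases was not tested.

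The other members that rose with erlotinib varied between the lines. EPRS1 rose by 0.46 in PC9 and 0.51 in H1650, IARS1 (isoleucine) by 0.58 and 0.33, and YARS1 (tyrosine) by 0.43 and 0.84. TARS1 rose less in PC9 (0.23) than in H1650 (0.77), a difference that passed the test of drug by line (adjusted p = 0.000105). LARS1 (leucine) rose by 0.32 and 0.22, and NARS1 (asparagine) by 0.18 and 0.26. The weakest of these calls rested on single libraries. In PC9 NARS1 was at 0.10 to 0.16 (adjusted p from 0.0574 to 0.375) without the first T0 library of PC9, the second erlotinib library of PC9, the first T0 library of H1650, either erlotinib library of H1650 or either osimertinib library of H1650, and it was not called by DESeq2. TARS1 in PC9 was at 0.15 to 0.18 (adjusted p from 0.119 to 0.158) without the first T0 library of PC9 or the second erlotinib library of PC9. In H1650, IARS1 was at 0.18 (adjusted p = 0.114) without the second erlotinib library of H1650. LARS1 there was at 0.18 (adjusted p from 0.162 to 0.18) without the first T0 library of H1650 or the second erlotinib library of H1650. NARS1 was at 0.19 to 0.25 (adjusted p from 0.0548 to 0.129) without the first T0 library of H1650 or the second erlotinib library of H1650. QARS1 was at 0.17 to 0.23 (adjusted p from 0.068 to 0.177) without either T0 library of H1650 or the first erlotinib library of H1650. The number of cytosolic genes higher in both lines ranged from 10 to 13 over all alternatives tried.

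**Figure D2:**
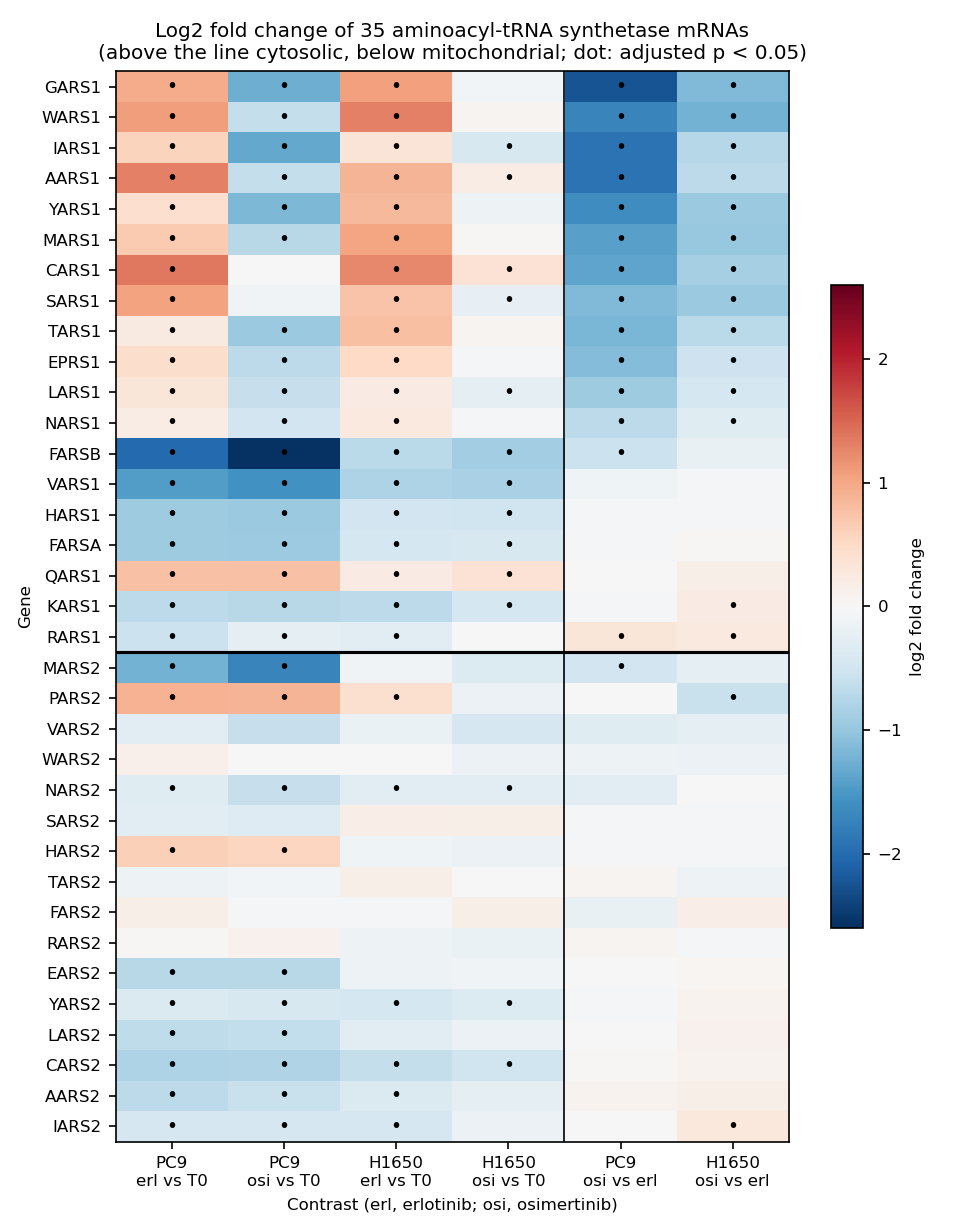
Log2 fold changes of the 35 members (rows, cytosolic above the line and mitochondrial below) in the 4 comparisons with T0 and the 2 comparisons of osimertinib with erlotinib (columns). Red is higher and blue lower in the first-named treatment, and a dot marks an adjusted p under 0.05. The upper 12 rows are red with erlotinib in both lines and blue in both drug comparisons, while few mitochondrial rows carry a dot in the last 2 columns.

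The second comparison set osimertinib against T0. In PC9, 1 cytosolic member was higher and 16 lower, where 32.7% of all tested genes were higher and 28.7% lower, 61.4% in either direction. The cytosolic median was -0.71 beside 0.06 over all tested genes. In H1650, 3 cytosolic members were higher and 8 lower (17.8% and 17.9% of all tested genes, 35.7% in either direction), and the median was -0.07 beside 0.00. Without the first osimertinib library of H1650 the 11 calls became 7. QARS1 was the single member higher in both lines after osimertinib, 7 cytosolic members were lower in both and AARS1 went in opposite directions, where 12% of all tested genes were higher and 12.3% lower in both lines.

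IARS1 showed one of the largest decreases in PC9, where it measured 349.5 and 364 normalized CPM at T0, 516 and 553 after erlotinib and 135 and 149 after osimertinib. In H1650 it measured 338 and 352 normalized CPM at T0, 394 and 474 after erlotinib and 255 and 262 after osimertinib. The osimertinib libraries were the lowest of each line, by -1.33 (SE 0.081, adjusted p = 2.71e-14) against T0 in PC9 and -0.42 (SE 0.079, adjusted p = 0.000112) in H1650. GARS1 changed by -1.28 in PC9 (SE 0.078) and was at -0.07 in H1650, which did not pass the test (adjusted p = 0.515). YARS1 and TARS1 had changes of -1.17 and -0.95 in PC9, both past the test, and -0.13 and 0.07 in H1650, neither past it. CARS1 and SARS1 were the cytosolic genes of PC9 that did not pass, at -0.01 and -0.09. In H1650 CARS1 was higher after osimertinib by 0.38 (SE 0.096, adjusted p = 0.00248) and AARS1 by 0.20 (SE 0.067, adjusted p = 0.0207). Both calls rested on single libraries. CARS1 was at 0.28 to 0.30 (adjusted p from 0.0566 to 0.0717) without the first T0 library of H1650 or the first osimertinib library of H1650, and AARS1 at 0.17 to 0.20 (adjusted p from 0.0911 to 0.172) without either T0 library of H1650 or the first osimertinib library of H1650. The decreases of LARS1 and SARS1 in H1650 were as close to the threshold, with LARS1 at -0.19 to -0.16 (adjusted p from 0.149 to 0.234) without the second T0 library of H1650 or the first osimertinib library of H1650 and SARS1 at -0.23 to -0.20 (adjusted p from 0.0761 to 0.127) without either T0 library of H1650 or either osimertinib library of H1650.

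The direct comparison set osimertinib against erlotinib, both at 36 h, so that the T0 levels do not enter the fold change, though the T0 libraries share in the estimate of the spread. In PC9, 13 of the 19 cytosolic members were lower after osimertinib and 1 higher, where 6.41% of all tested genes were lower and 10.1% higher, 16.6% in either direction. In H1650, 12 were lower and 2 higher, against 3.73% and 5.02% of all tested genes (8.75% in either direction). The same 12 genes were lower in both lines, which held for 1.52% of all tested genes, and that number was 11 or 12 under every alternative tried. The cytosolic median was -1.14 in PC9 and -0.54 in H1650, beside 0.00 and 0.00 over all tested genes. By amino acid these 12 serve alanine, cysteine, glutamate and proline, glycine, isoleucine, leucine, methionine, asparagine, serine, threonine, tryptophan and tyrosine. Of the cytosolic calls, 10 in PC9 and 2 in H1650 were changes of more than 2-fold. The share of all tested genes past that cut was not counted.

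GARS1 had the largest difference of the family in PC9, -2.25 (SE 0.078, adjusted p = 4.26e-18), and one of the largest in H1650, -1.14 (SE 0.074, adjusted p = 9.28e-12). WARS1 differed by -1.71 (SE 0.088, adjusted p = 1.75e-14) in PC9 and -1.23 (SE 0.075, adjusted p = 3.39e-12) in H1650, AARS1 by -1.92 and -0.68, and IARS1 by -1.92 and -0.75. For these 4 genes every osimertinib library lay below every erlotinib library of its line. NARS1 was at the other end, with -0.67 in PC9 and -0.31 in H1650. Its H1650 call was lost at -0.32 to -0.24 (adjusted p from 0.0572 to 0.13) without the second erlotinib library of H1650 or either osimertinib library of H1650.

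The difference between the drugs was itself larger in PC9. The test of that contrast between lines was past the threshold for 11 cytosolic and 0 mitochondrial members, where 5.21% of all tested genes were (1.81% with the higher and 3.4% with the lower value in H1650), and all 11 were among the 12 genes. The 0 mitochondrial calls are those of edgeR. DESeq2 also gave 0, and 3 had an unadjusted p under 0.05 in edgeR. The largest of these differences, H1650 minus PC9 on the log2 scale, were 1.24 for AARS1, 1.17 for IARS1 and 1.11 for GARS1. SARS1 was the gene of the 12 without a call, at 0.19 (SE 0.1, adjusted p = 0.398). The 11 calls became 7 without the first osimertinib library of PC9 and also 7 without that of H1650. Against T0 the changes differed between the lines for 14 members with erlotinib and 23 with osimertinib, where 40.8% of all tested genes did with erlotinib (21.1% higher and 19.8% lower in H1650) and 41.9% with osimertinib (21.5% and 20.5%).

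**Figure D3:**
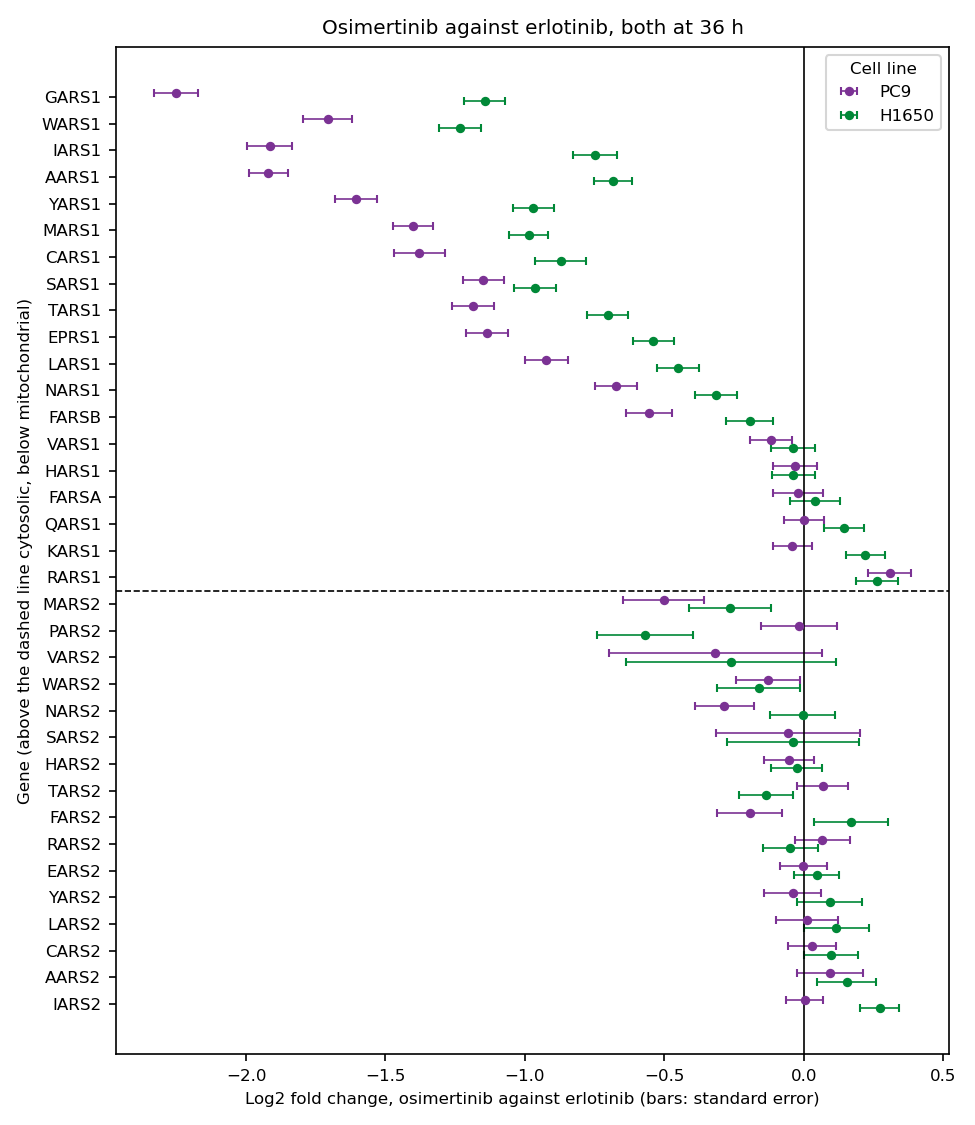
Log2 fold change of osimertinib against erlotinib (horizontal axis) for each of the 35 members (rows), in PC9 (purple) and H1650 (green), with standard errors as bars. The 12 uppermost genes lie left of 0 in both lines and farther left in PC9 (GARS1 -2.25 against -1.14), while most mitochondrial genes, below the dashed line, lie within 0.3 of 0.

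The other 6 cytosolic genes, apart from QARS1, were lower after both drugs than at T0 in PC9. FARSB, which encodes a subunit of the phenylalanine enzyme, changed most. It measured 249.7 and 264 normalized CPM at T0, 60.9 and 66.0 after erlotinib and 41.6 and 44.8 after osimertinib in PC9. In H1650 it measured 79.7 and 78.4 normalized CPM at T0, 46.0 and 50.9 after erlotinib and 44.2 and 40.6 after osimertinib. Every treated library lay below the T0 libraries of its line. The log2 fold changes were -2.02 (SE 0.08, adjusted p = 2.45e-18) with erlotinib and -2.57 (SE 0.084, adjusted p = 2.48e-20) with osimertinib in PC9, and -0.70 and -0.90 in H1650. FARSB was also the one cytosolic gene outside the 12 that was called lower after osimertinib than after erlotinib, in PC9 (-0.56 (SE 0.083, adjusted p = 1.63e-05)), and its line difference of 0.36 did not pass the test. FARSA, for the partner subunit, fell less, with -0.92 and -0.95 in PC9, with -0.45 and -0.41 in H1650. The ratio of FARSB to FARSA, in normalized CPM, was 2.18 and 2.35 in the PC9 T0 libraries, 0.933 and 1.21 after erlotinib and 0.712 and 0.755 after osimertinib. In H1650 the ratio was already 0.891 and 1.01 at T0 and then 0.746 and 0.845 with erlotinib and 0.685 and 0.668 with osimertinib. So the ratio of the subunit messages was below its T0 values in all 8 treated libraries.

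VARS1, the valine enzyme, had the next largest decrease of the cytosolic members in PC9. It was at 265 and 266 normalized CPM at T0, 101 and 93.7 after erlotinib and 90.8 and 88.1 after osimertinib in PC9. H1650 had 117 and 109 normalized CPM at T0, 66.5 and 62.5 after erlotinib and 66.1 and 59.6 after osimertinib. Treated and T0 libraries did not overlap, with log2 fold changes of -1.45 and -1.57 in PC9, with -0.81 and -0.85 in H1650. KARS1, the lysine enzyme of both compartments, had 231 and 234 normalized CPM at T0, 141 and 147 after erlotinib and 135 and 145 after osimertinib in PC9. Its values in H1650 were 325 and 324 normalized CPM at T0, 192 and 211 after erlotinib and 236 and 233 after osimertinib. The log2 fold change with erlotinib was -0.69 in PC9 and -0.69 in H1650, and the 3 annotated KARS1 pseudogenes could share reads with it. In H1650, KARS1 was higher after osimertinib than after erlotinib by 0.22 (SE 0.07, adjusted p = 0.0465), a call close to the threshold that was lost at 0.15 to 0.23 (adjusted p from 0.0586 to 0.388) without either T0 library of PC9, either T0 library of H1650, the first erlotinib library of H1650 or either osimertinib library of H1650, and in the fit to H1650 alone (adjusted p = 0.0538).

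RARS1, for arginine, was the gene with higher levels after osimertinib than after erlotinib in both lines. It was at 156 and 170.5 normalized CPM at T0, 110.2 and 110.2 after erlotinib and 135 and 138 after osimertinib in PC9. The H1650 levels were 157 and 171 normalized CPM at T0, 130.0 and 141 after erlotinib and 155 and 170.4 after osimertinib. The differences were 0.31 (SE 0.077, adjusted p = 0.00502) and 0.26 (SE 0.076, adjusted p = 0.0274), with no overlap between the drugs, and the H1650 value was 0.20 (adjusted p from 0.258 to 0.278) without the first erlotinib library of H1650 or the second osimertinib library of H1650. Its decreases against T0 were -0.57 with erlotinib and -0.26 with osimertinib in PC9 and -0.28 with erlotinib in H1650. They became -0.20 (adjusted p = 0.0909) without the second T0 library of PC9 for osimertinib in PC9 and -0.22 to -0.21 (adjusted p from 0.0892 to 0.0942) without the second T0 library of H1650 or the first erlotinib library of H1650 in H1650. QARS1 was the one cytosolic gene higher with both drugs in both lines. Its values were 144 and 146 normalized CPM at T0, 243 and 246 after erlotinib and 231 and 258 after osimertinib in PC9. In H1650 they were 134 and 136 normalized CPM at T0, 163 and 151 after erlotinib and 172 and 176 after osimertinib. The drugs differed by 0.00 (SE 0.071) in PC9 and 0.15 (SE 0.072) in H1650, neither past the test.

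**Figure D4:**
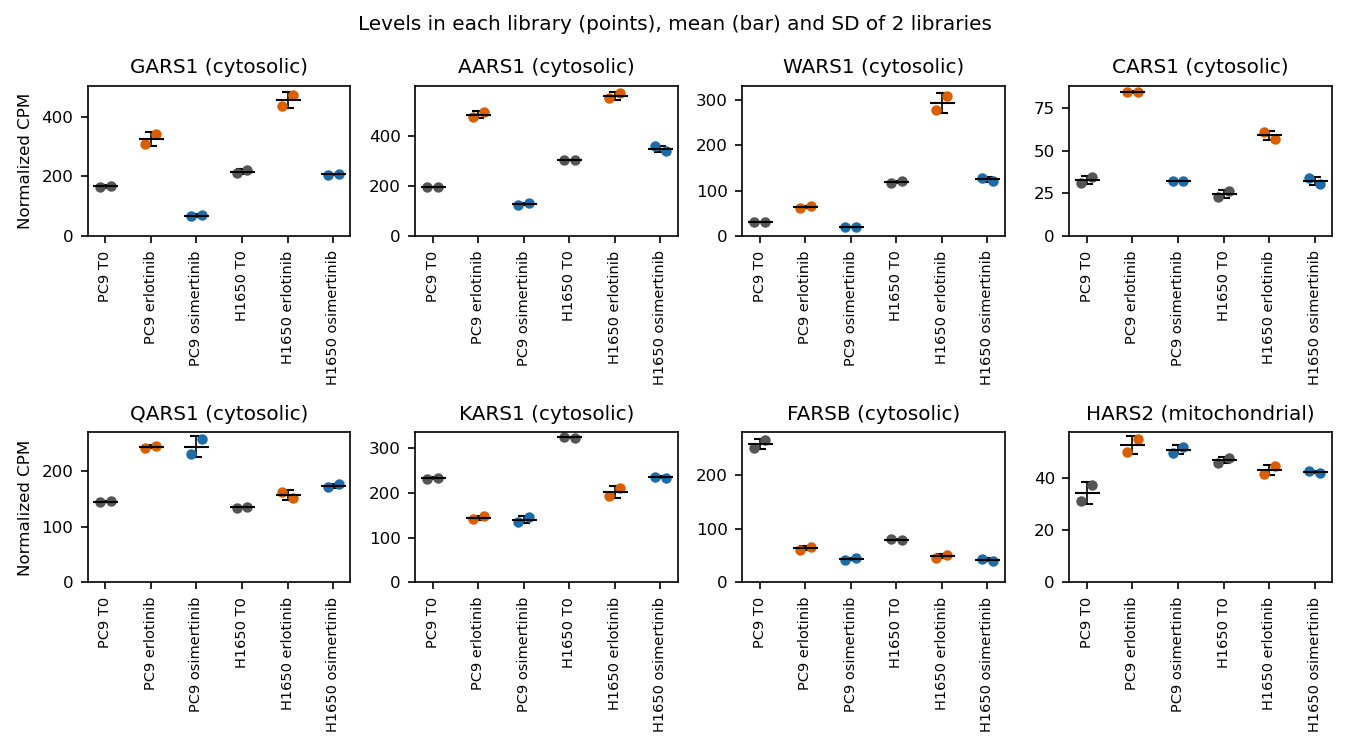
Normalized CPM of 7 cytosolic members and HARS2 in each library. Points are libraries, the wide bar is the mean and the whiskers are the SD of 2 libraries. GARS1, AARS1, WARS1 and CARS1 were highest after erlotinib in both lines, QARS1 was above T0 with each drug, and KARS1 and FARSB were below T0 with each drug.

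A set of 7 cytosolic members belongs to the multisynthetase complex: EPRS1, IARS1, KARS1, LARS1, MARS1, QARS1 and RARS1. With erlotinib 5 of the 7 were higher and 2, KARS1 and RARS1, lower in each line, where 32.7% of all tested genes were higher and 29.1% lower in PC9 and 18% and 18.5% in H1650. The 7 had a median of 0.46 in PC9 and 0.22 in H1650. The 12 cytosolic genes outside the complex split 8 to 4 in each line, beside the same shares of all tested genes. After osimertinib 6 of the 7 were lower and 1 higher in PC9, where 28.7% of all tested genes were lower and 32.7% higher. In H1650, 3 of the 7 were lower and 1 higher after osimertinib, where 17.9% of all tested genes were lower and 17.8% higher. Among the scaffold genes with erlotinib, AIMP1, AIMP2 and EEF1E1 had -0.30, -0.84 and -0.97 in PC9, all 3 past the test, and -0.15, -0.16 and -0.33 in H1650. None of the H1650 values passed the edgeR test, and 1 had an unadjusted p under 0.05. With erlotinib 61.8% of all tested genes had a call in PC9 and 36.5% in H1650.

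Of the 16 mitochondrial synthetases, 2 were higher and 8 lower with erlotinib than at T0 in PC9, where 61.8% of all tested genes had a call, and 1 was higher and 5 lower in H1650, where 36.5% had one. With osimertinib the counts were 2 and 8 in PC9 (61.4% of all tested genes), and 3 were lower in H1650 (35.7%). Except for osimertinib in H1650, where it was lower, the share of members with a call in either direction was near that of all genes. By direction, 32.7% of all tested genes in PC9 were higher with each drug, and 29.1% (erlotinib) and 28.7% (osimertinib) lower. In H1650, 18% were higher and 18.5% lower with erlotinib, and 17.8% and 17.9% with osimertinib. In PC9 the members' calls thus lay more on the lower side than those of all genes. The members' medians were -0.30 and -0.43 in PC9, with -0.13 and -0.16 in H1650. Between the drugs, 1 was lower in PC9 (MARS2), and in H1650 IARS2 was higher and PARS2 lower. Of all tested genes 16.6% differed between the drugs in PC9 and 8.75% in H1650. A total of 16 cytosolic genes have a mitochondrial counterpart for the same amino acid (EPRS1 has EARS2 and PARS2), and 11 of these were lower after osimertinib than after erlotinib in both lines. The counterpart was lower in both lines for 0 of the 11, near the 1.52% of all tested genes lower in both. It had a call in either line for 3, namely MARS2 and PARS2, each lower in 1 line, and IARS2, higher in 1 line. The share of all tested genes with a call in either line was not counted. Leaving out 1 library at a time gave between 1 and 4 mitochondrial calls in place of 3 for osimertinib in H1650 (1 without the first T0 library and without the second osimertinib library), and 3 in place of 6 for erlotinib in H1650 without the first erlotinib library.

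MARS2, the mitochondrial methionine enzyme, had the largest decrease among them in PC9. It was at 27.0 and 30.1 normalized CPM at T0, 13.4 and 11.1 after erlotinib and 8.60 and 8.63 after osimertinib in PC9. In H1650, where it was lower to begin with, it was at 11.7 and 11.1 normalized CPM at T0, 9.60 and 11.7 after erlotinib and 9.50 and 8.28 after osimertinib. In PC9 every treated library lay below T0, by -1.22 (SE 0.13, adjusted p = 4.19e-09) with erlotinib and -1.73 (SE 0.14, adjusted p = 1.24e-11) with osimertinib, and in H1650 the values of -0.09 and -0.36 did not pass the test. The drugs differed by -0.50 (SE 0.15, adjusted p = 0.0159) in PC9, a call that was lost at -0.51 to -0.36 (adjusted p from 0.0764 to 0.197) without the first erlotinib library of PC9 or either osimertinib library of PC9.

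CARS2, for cysteine in mitochondria, was lower with both drugs in both lines. It was at 90.7 and 91.0 normalized CPM at T0, 53.8 and 50.1 after erlotinib and 51.7 and 54.4 after osimertinib in PC9. H1650 libraries held 31.5 and 32.1 normalized CPM at T0, 19.9 and 21.7 after erlotinib and 23.7 and 20.9 after osimertinib. The log2 fold changes were -0.81 and -0.78 in PC9, with -0.61 and -0.51 in H1650, while its cytosolic counterpart CARS1 moved the other way with erlotinib. YARS2, the one mitochondrial gene with the motif in its window, was at 51.2 and 52.1 normalized CPM at T0, 39.5 and 40.1 after erlotinib and 36.9 and 40.6 after osimertinib in PC9. Its H1650 levels were 23.7 and 19.3 normalized CPM at T0, 15.7 and 15.7 after erlotinib and 18.2 and 15.4 after osimertinib. It was below T0 with both drugs (-0.38 and -0.42 in PC9, -0.45 and -0.36 in H1650), and the H1650 values became -0.30 (adjusted p = 0.0963) without the first T0 library of H1650 for erlotinib and -0.24 to -0.20 (adjusted p from 0.222 to 0.291) without the first T0 library of H1650 or the second osimertinib library of H1650 for osimertinib.

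IARS2, the highest mitochondrial member per kilobase, had 335 and 339 normalized CPM at T0, 242 and 252 after erlotinib and 240.4 and 255 after osimertinib in PC9. In H1650 it had 217 and 217 normalized CPM at T0, 157 and 166 after erlotinib and 196 and 193 after osimertinib. It was lower after erlotinib in both lines (-0.45 and -0.43), and in H1650 it was higher after osimertinib than after erlotinib by 0.27 (SE 0.069, adjusted p = 0.0102). That call was lost at 0.23 to 0.29 (adjusted p from 0.0507 to 0.132) without the first erlotinib library of H1650 or either osimertinib library of H1650. PARS2, the mitochondrial proline enzyme, was one of the 2 mitochondrial members that rose in PC9, with 9.88 and 10.7 normalized CPM at T0, 18.5 and 20.0 after erlotinib and 17.4 and 20.7 after osimertinib. In H1650 its levels were 6.16 and 4.67 normalized CPM at T0, 7.48 and 6.98 after erlotinib and 5.20 and 4.54 after osimertinib. The increases in PC9 were 0.91 (SE 0.14, adjusted p = 3.34e-06) and 0.89 (SE 0.15, adjusted p = 5.37e-06) with no overlap, whereas its H1650 calls, 0.43 (SE 0.17, adjusted p = 0.0475) for erlotinib against T0 and -0.57 (SE 0.17, adjusted p = 0.0356) between the drugs, were not kept by DESeq2 (adjusted p = 0.141 and 0.0685). The call between the drugs was also lost at -0.67 to -0.47 (adjusted p from 0.0826 to 0.231) without either erlotinib library of H1650 or either osimertinib library of H1650. The call against T0 was lost at 0.23 to 0.47 (adjusted p from 0.05 to 0.439) without either T0 library of PC9, either erlotinib library of PC9, the second T0 library of H1650, either erlotinib library of H1650 or the first osimertinib library of H1650.

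AARS2, EARS2, LARS2 and NARS2 were lower with both drugs in PC9, between -0.73 (EARS2 with osimertinib) and -0.31 (NARS2 with erlotinib). In H1650, AARS2 was lower with erlotinib (-0.38) and NARS2 with both drugs (-0.29 and -0.29). These calls were among the least stable. For erlotinib in PC9, NARS2 was at -0.28 to -0.25 (adjusted p from 0.0803 to 0.0924) without the second T0 library of PC9 or the second erlotinib library of PC9. For erlotinib in H1650 it was at -0.33 to -0.25 (adjusted p from 0.0544 to 0.224) without either T0 library of PC9, either osimertinib library of PC9, either T0 library of H1650 or either erlotinib library of H1650. For osimertinib in H1650 it was at -0.33 to -0.15 (adjusted p from 0.0512 to 0.489) without either T0 library of PC9, either osimertinib library of PC9, either T0 library of H1650, either erlotinib library of H1650 or the second osimertinib library of H1650. AARS2 was at -0.31 (adjusted p = 0.072) without the first erlotinib library of H1650. FARS2, RARS2, SARS2, TARS2, VARS2 and WARS2 had no call with either drug in either line. For VARS2 the SE of these changes was at least 0.36 and for SARS2 at least 0.236, and values as large as -0.59 (VARS2 with osimertinib in PC9) did not pass, so that changes of such sizes were not detectable at this depth. SARS2 shares 46.2% of its exon bases with another gene model on the same strand and VARS2 22.0% with GTF2H4, and how reads in such bases were assigned is not given in the sources used here.

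HARS1 and HARS2 encode the cytosolic and the mitochondrial histidine enzyme from neighbouring genes on opposite strands. In GENCODE 29 the HARS1 model reaches base 140691862 and HARS2 begins at base 140691426, so that the models overlap. The RefSeq starts used here instead lie on either side of the 84 bases chr5:140691371-140691454 (GRCh38.p14, plus strand, the direction of HARS2). This stretch is printed because both genes are transcribed away from it when read from these RefSeq starts.
HARS1-HARS2 interval: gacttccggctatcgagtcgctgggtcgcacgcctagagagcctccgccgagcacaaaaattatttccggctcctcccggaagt
HARS1 was at 89.9 and 92.5 normalized CPM at T0, 49.3 and 46.3 after erlotinib and 45.5 and 47.9 after osimertinib in PC9. HARS2 was at 31.3 and 37.1 normalized CPM at T0, 49.9 and 54.9 after erlotinib and 49.4 and 51.8 after osimertinib in the same libraries. With both drugs HARS1 lay below T0 (-0.93 and -0.97) and HARS2 above it (0.62 and 0.56), with no overlap for either gene. In H1650, HARS1 had 96.2 and 99.3 normalized CPM at T0, 70.0 and 69.4 after erlotinib and 67.4 and 68.4 after osimertinib. HARS2 had 45.8 and 47.5 normalized CPM at T0, 41.5 and 44.3 after erlotinib and 42.5 and 41.9 after osimertinib there. HARS1 was again lower (-0.49 and -0.53), and HARS2 did not pass the test (-0.12 and -0.14). The drug-by-line difference of HARS2 was past the threshold for both drugs (-0.74 and -0.71). Exons of the 2 genes overlap on opposite strands over 437 bases in GENCODE 29, so that some reads could count for either.

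**Figure D5:**
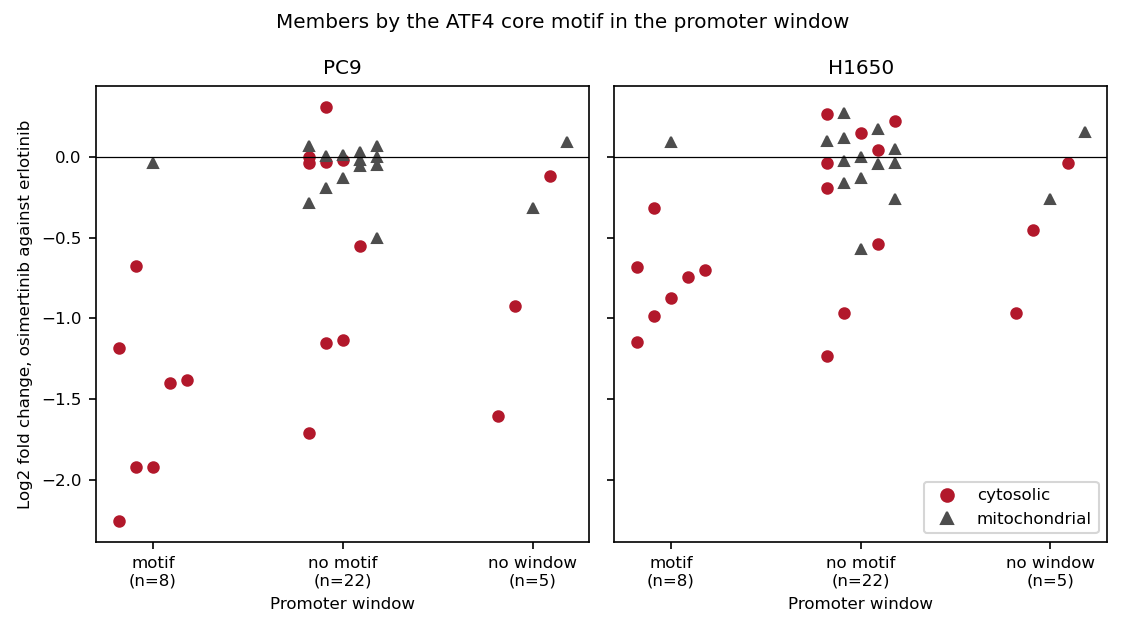
Log2 fold change of osimertinib against erlotinib (vertical axis) in PC9 (left) and H1650 (right) for members with the motif TGATGNAA in the promoter window (8), without it (22) and without a window (5). Circles are cytosolic and triangles mitochondrial genes, spread sideways so that points can be seen. The 7 cytosolic genes with the motif lie below 0 in both lines and YARS2 lies near 0.

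ATF4 messages were highest after erlotinib, as were those of the 12 genes. After osimertinib in PC9 the likeness ended, with ATF4 above T0 (0.18). There CARS1 and SARS1 had no call against T0 (-0.01 and -0.09), and the others of the 12 were lower. ATF4 was at 287 and 304 normalized CPM at T0, 764 and 778 after erlotinib and 326 and 345 after osimertinib in PC9. In H1650 it was at 207 and 208 normalized CPM at T0, 430.2 and 423 after erlotinib and 285 and 287 after osimertinib. Erlotinib libraries were highest in both lines, by 1.38 (SE 0.067, adjusted p = 2.21e-16) and 1.04 (SE 0.067, adjusted p = 1.31e-12) against T0, and osimertinib libraries lay between the other groups, at -1.20 and -0.58 against erlotinib and 0.18 and 0.46 against T0. These are levels of RNA, and ATF4 is known to be controlled mostly at translation. Whether ATF4 acted on the 12 genes in these cells was not tested. A list of 28 other known ATF4 targets, whose pattern was known from earlier results of these data, had 24 higher and 3 lower with erlotinib in PC9 and 23 and 3 in H1650, beside 61.8% and 36.5% of all tested genes with a call. After osimertinib the counts were 9 higher and 13 lower in PC9 and 13 and 8 in H1650, beside 61.4% and 35.7%. Between the drugs 23 were lower and 2 higher in PC9 and 21 and 1 in H1650, beside 16.6% and 8.75%, with medians of -1.38 and -0.95.

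Within that list PSAT1, of serine synthesis, was at 150.3 and 161 normalized CPM at T0, 589 and 619.8 after erlotinib and 20.2 and 21.0 after osimertinib in PC9. In H1650 PSAT1 was at 90.4 and 89.3 normalized CPM at T0, 541 and 553 after erlotinib and 108 and 101 after osimertinib. ASNS, asparagine synthetase, stood at 0.555 and 0.74 normalized CPM at T0, 15.3 and 18.3 after erlotinib and 0.879 and 0.28 after osimertinib in PC9. It stood at 2.05 and 1.85 normalized CPM at T0, 10.3 and 9.54 after erlotinib and 1.86 and 1.74 after osimertinib in H1650. Both were highest after erlotinib, with differences between the drugs of -4.88 and -4.78 in PC9, with -2.38 and -2.46 in H1650. ATF5 and ALDH18A1, a transcription factor and an enzyme of proline synthesis, were lower with erlotinib in both lines (-0.92 and -0.57 in PC9, -0.59 and -0.22 in H1650).

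MYC, another regulator of genes for protein synthesis, differed from ATF4. It was at 122 and 118 normalized CPM at T0, 118 and 118 after erlotinib and 80.4 and 85.5 after osimertinib in PC9. H1650 had 70.1 and 60.9 normalized CPM at T0, 49.3 and 54.1 after erlotinib and 53.0 and 53.0 after osimertinib. In PC9 the T0 and erlotinib libraries lay close together (-0.02, adjusted p = 0.836), and MYC was lower after osimertinib by a log2 fold change of -0.53 (SE 0.08, adjusted p = 1.35e-06). In H1650 the values were -0.34 with erlotinib (adjusted p = 0.00167) and -0.30 with osimertinib (adjusted p = 0.0043). Among the kinases of eIF2 and related genes, EIF2S1, a subunit of eIF2 itself, was lower with erlotinib in both lines (-1.42 and -0.55).

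Other genes of tRNA handling and translation were counted in the same way. Of 18 tested genes for tRNA processing and export, 1 was higher and 11 lower with erlotinib in PC9 and 2 higher and 7 lower in H1650, beside 61.8% and 36.5% of all tested genes with a call. After osimertinib 13 were lower in PC9, and 1 was higher and 8 lower in H1650, beside 61.4% and 35.7%. XPOT, which exports tRNA from the nucleus, was the gene that was higher with erlotinib in both lines, at 0.83 and 0.77 with erlotinib and -2.07 and -1.02 between the drugs. POP1, a subunit of RNase P and RNase MRP, was the lowest, at -1.80 and -1.06 with erlotinib. Of 13 mitochondrial translation factors, 2 were higher and 4 lower with erlotinib in PC9 and 3 were lower in H1650, under the shares of all tested genes just given. Between the drugs 2 of the 13 were lower in PC9, near the 16.6% of all tested genes with a call. In H1650 edgeR called 0, with 2 at an unadjusted p under 0.05, beside 8.75% of all tested genes with a call. Of the 5 tested cytosolic elongation factors, 2 were higher and 3 lower with erlotinib in PC9, and 3 were lower in H1650. The shares of all tested genes with a call were 61.8% and 36.5%. EIF5A was the lowest with erlotinib (-1.70 in PC9 and -0.73 in H1650). In PC9 the mean of EEF1A1 was 9185 normalized CPM at T0 and 17074 after erlotinib.

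At T0, before any drug, the lines already differed in 25 of the 35 members, near the share of all tested genes (69.6%). H1650 had 4 cytosolic members higher and 8 lower than PC9, and 2 mitochondrial members higher and 11 lower. The medians were -0.10 for cytosolic and -0.82 for mitochondrial members, beside 0.04 over all tested genes. WARS1 and WARS2 parted most, with 1.99 (SE 0.083, adjusted p = 4.32e-18) for WARS1 and -1.79 (SE 0.13, adjusted p = 1.01e-12) for WARS2, both serving tryptophan. FARSB (-1.70), VARS1 (-1.23) and TARS1 (-1.18) were lower in H1650, and AARS1 (0.64), KARS1 (0.48) and GARS1 (0.38) higher.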

How the data were processed

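Poly(A) RNA of PC9 and H1650 cells (T0, erlotinib or osimertinib, 2 replicates each) was sequenced. The authors ran their reads through DolphinNext and deposited counts per gene (from featureCounts, by the table's own name), not normalized, in 1 table whose columns were matched to libraries by name. The build in the submitters' processing notes is GRCh38; aligner, annotation and strand setting are not given in the sources used here. Groups follow the sample labels. Members and gene lists were chosen with earlier results of these data known.

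Counts were tested in R 4.3.3 with edgeR 4.0.16 (TMM, filterByExpr by group, quasi-likelihood test, 6 groups as terms, 6 residual and 20.7 prior degrees of freedom, biological coefficient of variation 0.0656). The filter kept 19108 genes. Calls are at a Benjamini-Hochberg adjusted p under 0.05 over these genes. SE is the size of the log2 fold change over the square root of F. CLP1 is not in the table and EEF1G, at 0 reads in every library, was below the filter, which leaves 18 and 5 genes of their lists. The chi-square of replicates was 4.36 to 7.94 per degree of freedom, so none was a copy of another. Alternatives were DESeq2 1.42.0, RLE and upper quartile scaling, a filter of at least 1 or 10 counts, a threshold of 0.01, one fit per line, the replicate number as a block and fits without 1 library. The edgeR steps were first tested on simulated counts. Library totals were 17961765 to 26346187 reads. Exon overlaps are taken from the gene models of GENCODE 29 and promoter windows from RefSeq. Gene lengths for levels per kilobase came with the deposited counts. They differ from GENCODE 29 for some members, as for LARS1 (20639 bases against 8118). The overlaps given here may therefore differ from those in the annotation that was counted. Values in every library are given for the 3 cytosolic and 2 mitochondrial members with the largest called changes in each direction of each drug contrast, and for GARS1, KARS1, HARS1, HARS2, ATF4 and MYC. From each other list, the 2 highest and 2 lowest called genes of a contrast could be named.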

Additional observations from a re-analysis of the deposited data

Results flagged for a closer look

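Each value here is a difference between the lines, the log2 fold change of H1650 less that of PC9. The test of this difference passed the threshold for the following members (adjusted p under 0.05, edgeR's quasi-likelihood test). It passed for 40.8% of all tested genes with erlotinib and for 41.9% with osimertinib.

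With erlotinib, 14 members differed between the lines. The change was higher in H1650 for FARSB (1.31), MARS2 (1.13), VARS1 (0.64), EARS2 (0.59), TARS1 (0.54), FARSA (0.47), HARS1 (0.45), YARS1 (0.41), MARS1 (0.34) and RARS1 (0.29). It was lower in H1650 for HARS2 (-0.74), QARS1 (-0.53), AARS1 (-0.43) and SARS1 (-0.31).

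With osimertinib, 23 members differed. The largest were FARSB (1.67), MARS2 (1.37), GARS1 (1.21), YARS1 (1.05), TARS1 (1.02), IARS1 (0.91) and AARS1 (0.81), all with the higher change in H1650. Also higher in H1650 were MARS1 (0.75), VARS1 (0.72), WARS1 (0.69), EPRS1 (0.64), EARS2 (0.64), FARSA (0.53), LARS2 (0.49), HARS1 (0.44), NARS1 (0.43), CARS1 (0.39), LARS1 (0.38), IARS2 (0.29) and KARS1 (0.26). PARS2 (-1.03), HARS2 (-0.71) and QARS1 (-0.39) were lower in H1650.

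The difference between osimertinib and erlotinib itself differed between the lines for 11 members, all cytosolic and all with the larger decrease in PC9. They were AARS1 (1.24), IARS1 (1.17), GARS1 (1.11), YARS1 (0.64), EPRS1 (0.60), CARS1 (0.51), TARS1 (0.48), WARS1 (0.47), LARS1 (0.47), MARS1 (0.42) and NARS1 (0.36).

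Some of these calls rested on single libraries, and the others were kept whichever library was left out. With erlotinib, RARS1 was at 0.23 to 0.29 (adjusted p from 0.0624 to 0.173) without the second T0 library of PC9, either erlotinib library of PC9, the first T0 library of H1650 or the second erlotinib library of H1650, and SARS1 at -0.31 to -0.18 (adjusted p from 0.0574 to 0.222) without either T0 library of PC9, the first T0 library of H1650 or the first erlotinib library of H1650. With osimertinib, CARS1 was at 0.31 to 0.39 (adjusted p from 0.0543 to 0.124) without the second T0 library of PC9, the first osimertinib library of PC9, the first T0 library of H1650 or the first osimertinib library of H1650. IARS2 was at 0.25 to 0.28 (adjusted p from 0.0609 to 0.0714) without the second T0 library of PC9 or the first osimertinib library of PC9, and KARS1 at 0.21 to 0.29 (adjusted p from 0.0558 to 0.141) without either T0 library of PC9, the first osimertinib library of PC9, either T0 library of H1650 or either osimertinib library of H1650. LARS1 was at 0.31 (adjusted p = 0.0517) without the second T0 library of PC9, and LARS2 at 0.36 to 0.43 (adjusted p from 0.0635 to 0.105) without the first osimertinib library of PC9 or the second T0 library of H1650. Between the drugs, CARS1 was at 0.43 to 0.51 (adjusted p from 0.0607 to 0.12) without the first osimertinib library of PC9, the second erlotinib library of H1650 or the first osimertinib library of H1650. LARS1 was at 0.40 (adjusted p = 0.0659) without the second osimertinib library of H1650, and MARS1 at 0.37 to 0.39 (adjusted p from 0.0578 to 0.0628) without the first osimertinib library of PC9, the first erlotinib library of H1650 or the first osimertinib library of H1650. NARS1 was at 0.29 to 0.37 (adjusted p from 0.0524 to 0.206) without either T0 library of PC9, the second erlotinib library of PC9, the first osimertinib library of PC9, either T0 library of H1650, the first erlotinib library of H1650 or either osimertinib library of H1650, and WARS1 at 0.39 to 0.43 (adjusted p from 0.0704 to 0.0872) without the first osimertinib library of PC9, the first erlotinib library of H1650 or the first osimertinib library of H1650.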

How the results depend on the processing

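Each alternative was compared with the reported fit. Of 6860 member values, 0 called values changed sign, 187 lost their call and 52 gained one, and 179 values without a call in either fit changed sign, the largest of them 0.43 in size. Counts of cytosolic calls stayed within 1.5 times under every alternative, apart from the line difference between the drugs, 7 in place of 11 at a threshold of 0.01, and from fits without 1 library, which gave 7 to 11 calls for that contrast and 7 to 11 in place of 11 for osimertinib in H1650. Small mitochondrial counts moved more. For osimertinib in H1650, 3 calls became 1 at a threshold of 0.01 and 1 to 4 without 1 library. For erlotinib in H1650, 6 calls became 3 to 6 without 1 library. Between the drugs in PC9, 1 call became 2 with upper quartile scaling and with one fit per line, 0 at a threshold of 0.01 and 0 to 1 without 1 library. Between the drugs in H1650, 2 calls became 1 with DESeq2 and with one fit per line, 0 at a threshold of 0.01 and 0 to 2 without 1 library. For the line difference between the drugs, 0 became 1 with upper quartile scaling. Replicate numbers were not shown to pair the libraries: deviations of same-numbered libraries correlated between -0.0671 and 0.0947 over 15 pairs of groups, with 0 above 0.1. With the replicate number as a block, mitochondrial calls were 5 in place of 3 for osimertinib in H1650, 2 in place of 1 between the drugs in PC9 and 1 in place of 0 for the line difference, and 12 member values gained a call and 0 lost one. Scaling by upper quartile or RLE shifted the members' log2 fold changes by a median of at most 0.0907 in size in any contrast. Single members may have moved more. The cause of these moves was not tested beyond the fewer libraries or stricter threshold that define them. Depth limits VARS2, SARS2 and PARS2 most, and 2 libraries a group leave small changes near the threshold, such as those of NARS1, LARS1 and QARS1, without a firm call.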
